A study of Mus musculus with 10 samples.

Results

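βTC6 cells, an insulinoma line that the study used as a β-cell reference, were set against islets on 2 arrays each, which are 4 of the 10 arrays of the series. βTC6 cells were untreated. The study's PCR methods describe them as grown in DMEM with fetal calf serum and taken in log phase, which its array methods do not repeat. The line is known to derive from a pancreatic tumour of a mouse in which the insulin promoter drives SV40 large T antigen, so it is 1 line and not a sample of β-cells at large. The islets were untreated whole islet tissue, for which the labels give no age. The study's text speaks of adult islet cells, whereas its supplement heads the islet values e15.5, so their age is uncertain. Whole embryonic pancreas of stage E15.5 (2 arrays, untreated) served to show which islet signals could also be read in exocrine and connective tissue. Day 13 embryoid bodies (EBs) of Ainv18 ES cells with Dox-inducible Pdx1 and Ngn3 were without Dox or with 1 µg/ml Dox (2 arrays each). They entered the estimate of the spread and the choice of the probe that reads each gene, and were not compared with the other groups. Nothing in the labels says that the arrays of a group came from separate cultures or animals, so the p-values measure the spread between these arrays, which may be technical. Each array is a slide of its own and the files give no day of hybridization, so a batch of arrays and a group cannot be told apart.

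All arrays were 1-colour CodeLink Mouse Whole Genome arrays read with a streptavidin-Alexa647 conjugate, and a level here is a scaled intensity, on which the median probe of every array is 1. A probe that the scanner software did not find above its local background is called at background, levels were floored at 0.27, and a probe too bright to be read is called saturated, so that its level is a lower limit. Probes above background on both arrays of βTC6 cells or of islets were compared, 25320 of 34967, and each of 14520 genes was read by its probe with the highest mean level. Where both arrays of the dimmer group were at background, or both of the brighter group saturated, the fold is a limit, written "at least". Medians over lists take floored and saturated values as they stand, so they are limits where many members have such values. Levels of different probes are not compared with each other.

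β-cells release insulin when glucose enters through a transporter, is phosphorylated and burnt in mitochondria, and the ATP made closes potassium channels so that calcium flows in and hormone granules fuse with the membrane. They hardly divide in the adult islet, where they lie beside α-, δ- and PP-cells, capillaries, macrophages and connective tissue, inside an exocrine gland whose acinar cells make digestive enzymes. Large T antigen is known to bind the retinoblastoma and p53 proteins, and lines made with it divide continuously.

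βTC6 cells and islets differed over most of the array. Of the 14520 genes, 7176 (49.4%) were higher and 4003 (27.6%) lower in βTC6 cells by limma's moderated test at an adjusted p under 0.05, and the median log2 difference (βTC6 minus islet) was 0.33. Over all 25320 probes, 10905 (43.1%) were higher and 7657 (30.2%) lower. With quantile normalization, which gives all arrays 1 distribution, the median over genes moved to 0.07 and the calls were 5859 higher and 5043 lower, so that 53.7% of the called genes were higher, against 64.2% on the scaled values. By more than 8-fold, 586 probes were higher and 489 lower, and by more than 32-fold, 112 were higher and 88 lower. The summed level over 17453 genes was 243836 and 255803 in βTC6 cells and 164747 and 153359 in islets. The replicate arrays correlated at 0.989 in βTC6 cells and 0.994 in islets, against 0.826 between the first array of each group, over 20377 probes above background on all 4 arrays. The number of arrays, 2 in each group, limits the precision. The β-cell genes Nkx6-1, Neurod1, Slc30a8 and G6pc2 were above background on all 4 arrays, so they cannot tell βTC6 arrays from islet arrays. Acinar genes, as described further on, were high on both islet arrays and in E15.5 pancreas, and low in βTC6 cells. They set the βTC6 arrays apart but do not identify islets. The scatter of levels shows where the genes of several lists lay, and the plot of list shares how many members of each list were called.

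**Figure D1:**
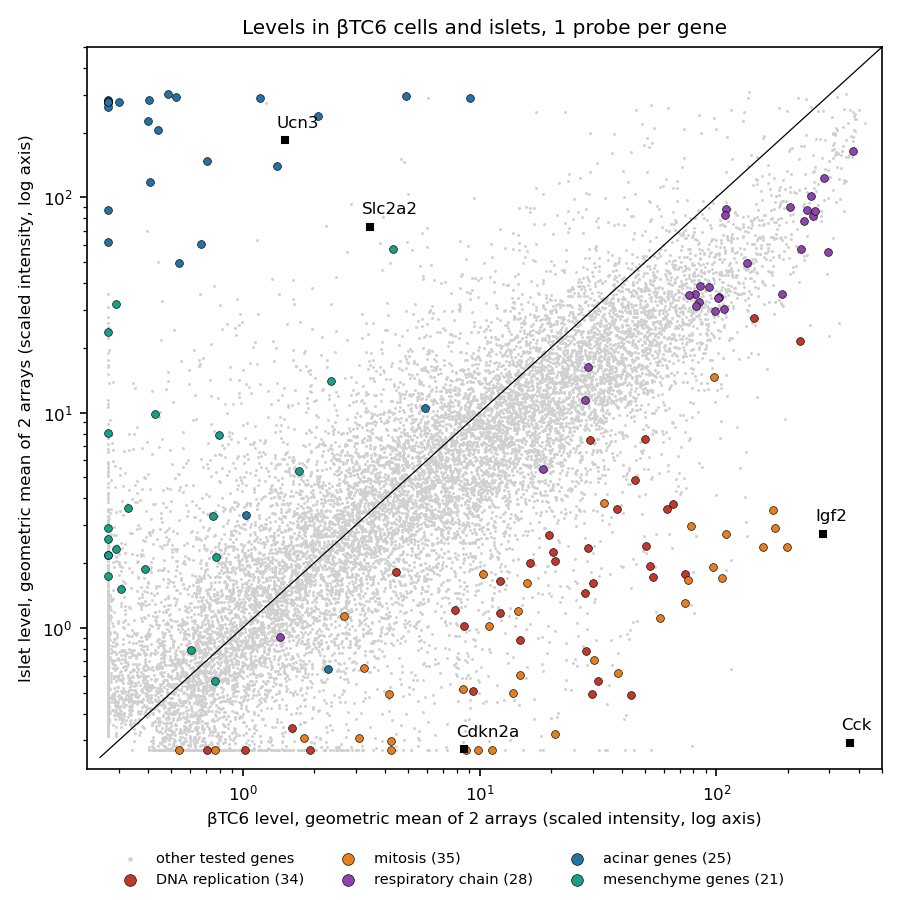
Mean level of each tested gene in βTC6 cells (x axis) and in islets (y axis), both as scaled intensity on log axes, 1 probe per gene, each point the geometric mean of 2 arrays, with the line of equal levels. Genes of DNA replication, mitosis and the respiratory chain lay below the line, and nearly all acinar and mesenchyme genes above it; Cck, Igf2 and Cdkn2a lay far below it and Ucn3 and Slc2a2 far above.

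The highest rises were mostly of genes that were at background in islets. Cck, which encodes the gut hormone and neuropeptide cholecystokinin, had 356 and 376 (both saturated) in βTC6 cells, against 0.317 and 0.27 (both at background) in islets, at least 1251-fold higher. Tsnaxip1 had 95 and 66 in βTC6 cells, against 0.293 and 0.27 (both at background) in islets (at least 282-fold), and Six2, a homeobox factor of kidney and craniofacial development, had 45.4 and 61.7 in βTC6 cells, against 0.27 on both arrays (at background) in islets (at least 196-fold). The βTC6 arrays were far above the islet arrays for each of these 3 genes, which were chosen among genes without overlap. Lgals2, a galectin, was at 87.2 and 152 in βTC6 cells, against 0.675 and 0.61 in islets (179.6-fold). Prmt8, an arginine methyltransferase of neurons, had 46.8 and 43.2 in βTC6 cells, against 0.27 on both arrays (at background) in islets (at least 167-fold). Meox2, a homeobox factor of mesoderm, had 37.8 and 44.5 in βTC6 cells, against 0.27 on both arrays (at background) in islets (at least 152-fold). Whether these genes share a pathway was not tested. Their islet levels were at or near background, which the choice of the largest rises favours. Gad2, the GAD65 enzyme that makes GABA and an autoantigen in human type 1 diabetes, had 33.7 and 35.7 in βTC6 cells, against 0.27 on both arrays (at background) in islets, at least 128-fold higher. Blnk, an adaptor of B-cell receptor signalling, had 50.2 and 33.3 in βTC6 cells, against 0.401 and 0.351 in islets (109-fold). The rises of Olfr1463 (at least 125-fold) and Xlr (at least 92.9-fold) belong to families of near-identical copies, and which copy was read is uncertain. Igf2os, which overlaps Igf2 on the other strand, was at least 118-fold higher, at 30.8 and 33.1 in βTC6 cells, against 0.27 on both arrays (at background) in islets.

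The clearest pattern was in the genes of cell division. All 34 tested genes of DNA replication and all 35 of mitosis were higher in βTC6 cells, against 49.4% of all genes, with median log2 differences of 3.39 and 4.71, against 0.33 over all genes, and the same numbers were higher with quantile normalization. The summed level of 33 replication genes was 1211 and 1295 in βTC6 cells, against 119 and 107 in islets, and that of 34 mitosis genes was 1593 and 1722, against 55.7 and 54.7. In RNA of whole tissue, fewer cells of a kind and less RNA per cell cannot be told apart. No gene of these lists that was read in E15.5 pancreas, where cells divide, had a mean islet level at or above the one there. The plot of hormones and cell cycle genes shows, on every array, the members named by rule, mostly those with the smallest adjusted p of each list. The D cyclins and other members named after their values were seen are not in it.

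Promoters of 4 of these genes are shown because the replication and mitosis genes moved together and differ in which motif their promoters hold. Each is the RefSeq promoter of the gene on GRCm38.p6, 5′ to 3′ on the strand of the gene, running from 250 bases before to 50 bases after the start. In Mcm5, a subunit of the replicative helicase (chr8:75109259-75109558, plus strand), and Cdc6, which loads that helicase onto DNA (chr11:98907901-98908200, plus strand), capitals mark matches to the E2F motif, written as TTTCCCGC, TTTCGCGC, TTTGCCGC or TTTGGCGC on either strand. In Cdk1, the kinase that starts mitosis (chr10:69352863-69353162, minus strand), and Ube2c, the ubiquitin-conjugating enzyme of the anaphase-promoting complex (chr2:164769679-164769978, plus strand), capitals mark the cell cycle homology region (CHR), TTTGAA on either strand.
Mcm5: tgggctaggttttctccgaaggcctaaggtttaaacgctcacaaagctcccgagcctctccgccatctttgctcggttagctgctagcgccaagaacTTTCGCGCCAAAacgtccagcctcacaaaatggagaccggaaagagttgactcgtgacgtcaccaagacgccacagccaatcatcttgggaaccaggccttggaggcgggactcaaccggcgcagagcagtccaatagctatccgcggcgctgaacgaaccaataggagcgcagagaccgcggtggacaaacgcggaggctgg
Cdc6: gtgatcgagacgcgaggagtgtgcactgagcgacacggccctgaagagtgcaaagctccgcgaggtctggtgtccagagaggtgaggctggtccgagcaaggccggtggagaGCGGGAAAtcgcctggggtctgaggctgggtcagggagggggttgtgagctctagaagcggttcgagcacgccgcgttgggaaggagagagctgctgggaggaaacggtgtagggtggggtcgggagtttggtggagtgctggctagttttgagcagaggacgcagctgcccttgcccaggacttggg
Cdk1: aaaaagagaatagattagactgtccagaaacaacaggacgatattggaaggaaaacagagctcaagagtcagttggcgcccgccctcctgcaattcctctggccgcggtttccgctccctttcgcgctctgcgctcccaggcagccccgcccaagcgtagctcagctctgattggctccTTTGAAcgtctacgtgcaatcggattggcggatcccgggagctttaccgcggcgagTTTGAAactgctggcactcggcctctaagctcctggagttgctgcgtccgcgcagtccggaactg
Ube2c: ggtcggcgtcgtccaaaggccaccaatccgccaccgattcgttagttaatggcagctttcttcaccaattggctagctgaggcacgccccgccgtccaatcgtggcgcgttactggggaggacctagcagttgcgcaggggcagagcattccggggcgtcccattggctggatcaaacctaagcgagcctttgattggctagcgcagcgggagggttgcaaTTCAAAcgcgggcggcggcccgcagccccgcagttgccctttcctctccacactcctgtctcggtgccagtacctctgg
The capitals in Mcm5 hold 2 overlapping E2F matches, and Cdk1 holds 2 CHR matches and also 1 E2F match left in lower case. The E2F motif was in 10 of 29 replication promoters (34.5%) and 1 of 29 mitosis promoters (3.45%), against 2.32% of 27025 promoters of the same length. The CHR motif was in 20 of 29 mitosis promoters (69%) and 4 of 29 replication promoters (13.8%), against 18.1% of all, and the CCAAT box, CCAAT on either strand, was in 23 of 29 (79.3%) and 18 of 29 (62.1%), against 37.9% of all. A match describes these letters in this window and is not a site of binding.

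Among the replication genes, Tk1, the thymidine kinase of S phase, had 37.4 and 51.2 in βTC6 cells, against 0.486 and 0.488 in islets (90.0-fold higher, log2 difference 6.49 ± 0.14, SE, adjusted p = 2.3e-12). Pole, the leading-strand polymerase, had 31.5 and 28.1 in βTC6 cells, against 0.488 and 0.502 in islets (60.1-fold), Cdc6 had 35.2 and 28.7 in βTC6 cells, against 0.555 and 0.579 in islets (56.1-fold), and Cdt1, its partner in licensing, had 76.6 and 71.4 in βTC6 cells, against 1.78 on both arrays in islets (41.5-fold). For all 4 genes, named with their values known, both βTC6 arrays were above both islet arrays. Mcm5 had 54.8 and 53.4 in βTC6 cells, against 1.79 and 1.67 in islets (31.3-fold), and the other helicase subunits Mcm2, Mcm3, Mcm4, Mcm6 and Mcm7 were 10.4-fold, 27.2-fold, 9.33-fold, 12.2-fold and 9.14-fold higher. The sliding clamp Pcna, which islets also held at a readable level, had 192 and 263 in βTC6 cells, against 23.9 and 19.2 in islets (10.5-fold). The smallest difference was that of the DNA ligase Lig1, with 4.83 and 4.08 in βTC6 cells, against 1.95 and 1.7 in islets (2.44-fold).

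Among the mitosis genes, Ube2c had 193 and 204 in βTC6 cells, against 2.16 and 2.64 in islets (83.2-fold higher, log2 difference 6.38 ± 0.11, SE, adjusted p = 6.1e-13), and Birc5, the survivin subunit of the chromosomal passenger complex, had 142 and 174 in βTC6 cells, against 2.38 and 2.4 in islets (65.8-fold). Mki67, the proliferation marker Ki-67, had 184 and 170.0 in βTC6 cells, against 3.12 and 2.72 in islets (60.6-fold). Cdk1 had 165 and 183 in βTC6 cells, against 3.75 and 3.33 in islets (49.1-fold), and its cyclins Ccna2 and Ccnb2 were 45.5-fold and 62-fold higher. In each case the groups stood apart by more than an order of magnitude. Mad2l1, of the spindle checkpoint, was 40.2-fold higher, the kinases Aurka and Aurkb 43-fold and 24.6-fold, and Plk1, at background in islets, at least 32.5-fold. The smallest difference was that of the centromere kinesin Cenpe, at least 1.99-fold, which was at 0.671 and 0.431 in βTC6 cells, against 0.27 on both arrays (at background) in islets. Top2a, 56.5-fold higher by its brightest probe, has another probe that was lower in βTC6 cells.

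The regulators of entry into S phase were more mixed, with a median of 0.95. Of 20, 14 were higher (70.0%) and 5 lower (25.0%), against 49.4% and 27.6% of all genes. The atypical repressors E2f8 and E2f7 rose furthest, E2f8 with 44.6 and 38.5 in βTC6 cells, against 0.397 and 0.387 in islets (106-fold) and E2f7 with 20.6 and 21.8 in βTC6 cells, against 0.367 and 0.406 in islets (55-fold). E2f1, an activator, was 4.96-fold higher, whereas E2f3 was at 6.88 and 6.55 in βTC6 cells, against 5.82 and 7.36 in islets (adjusted p = 0.79). Ccne1, the cyclin E1 that drives the step into S phase, had 10.7 and 10.0 in βTC6 cells, against 1.24 and 1.08 in islets (8.96-fold), and Ezh2, the Polycomb methyltransferase, 14.5 and 16.2 in βTC6 cells, against 1.4 and 1.36 in islets (11.1-fold). The D cyclins, which act upstream of the retinoblastoma protein, went the other way or little: Ccnd1 had 0.27 on both arrays (at background) in βTC6 cells, against 1.08 and 1.24 in islets (at least 3.69-fold lower), and Ccnd2, the main D cyclin of mouse islets, 62.9 and 56.5 in βTC6 cells, against 115 and 110.3 in islets (1.89-fold lower). Ccnd3 was 1.63-fold higher from 1 usable βTC6 array, while another of its probes was lower. Rb1 itself was 2.18-fold higher and its relative Rbl2 2.27-fold lower. Myc, at 1.26 and 2 in βTC6 cells, against 1.12 and 0.958 in islets, was 1.53-fold higher and stayed under its E15.5 pancreas level of 9.5 and 9.98.

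Inhibitors of the cell cycle were also high in βTC6 cells. Of 10 tested, 8 were higher (80.0%, against 49.4% of all genes) and none was lower, with a median of 1.81. Quantile normalization left 6 higher and none lower, as Gadd45g and Men1 no longer passed. Cdkn2a, the locus of p16INK4a and p19ARF, had 6.17 and 12 in βTC6 cells, against 0.276 and 0.27 (both at background) in islets (at least 31.5-fold higher, log2 difference 4.98 ± 0.29, SE, adjusted p = 3.2e-08). Both islet arrays and 1 of the E15.5 pancreas arrays were at background for it, and both βTC6 arrays were well above. Cdkn2c (p18INK4c) had 188 and 201 in βTC6 cells, against 9.61 and 9.16 in islets (20.7-fold), Cdkn2d (p19INK4d) had 101 and 106 in βTC6 cells, against 6.57 and 8.78 in islets (13.6-fold), and Gadd45a, a growth-arrest gene, 57.5 and 56.8 in βTC6 cells, against 5.44 and 5.1 in islets (10.8-fold). Cdkn1a (p21) was at 15.4 and 38.9 in βTC6 cells, against 5.56 and 5.55 in islets, 4.41-fold higher, but the βTC6 arrays differed by more than 2-fold from each other. Of 18 genes of p53 and its targets, 8 were higher (44.4%) and 7 lower (38.9%), against 49.4% and 27.6% of all genes. Their median of 0.25 is near that of all genes. Mdm2, the ubiquitin ligase of p53 and its target, had 1.07 and 1.04 in βTC6 cells, against 2.47 and 2.14 in islets (2.19-fold lower), and the death receptor Fas had 0.27 on both arrays (at background) in βTC6 cells, against 1.23 and 1.24 in islets (at least 3.92-fold lower).

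**Figure D2:**
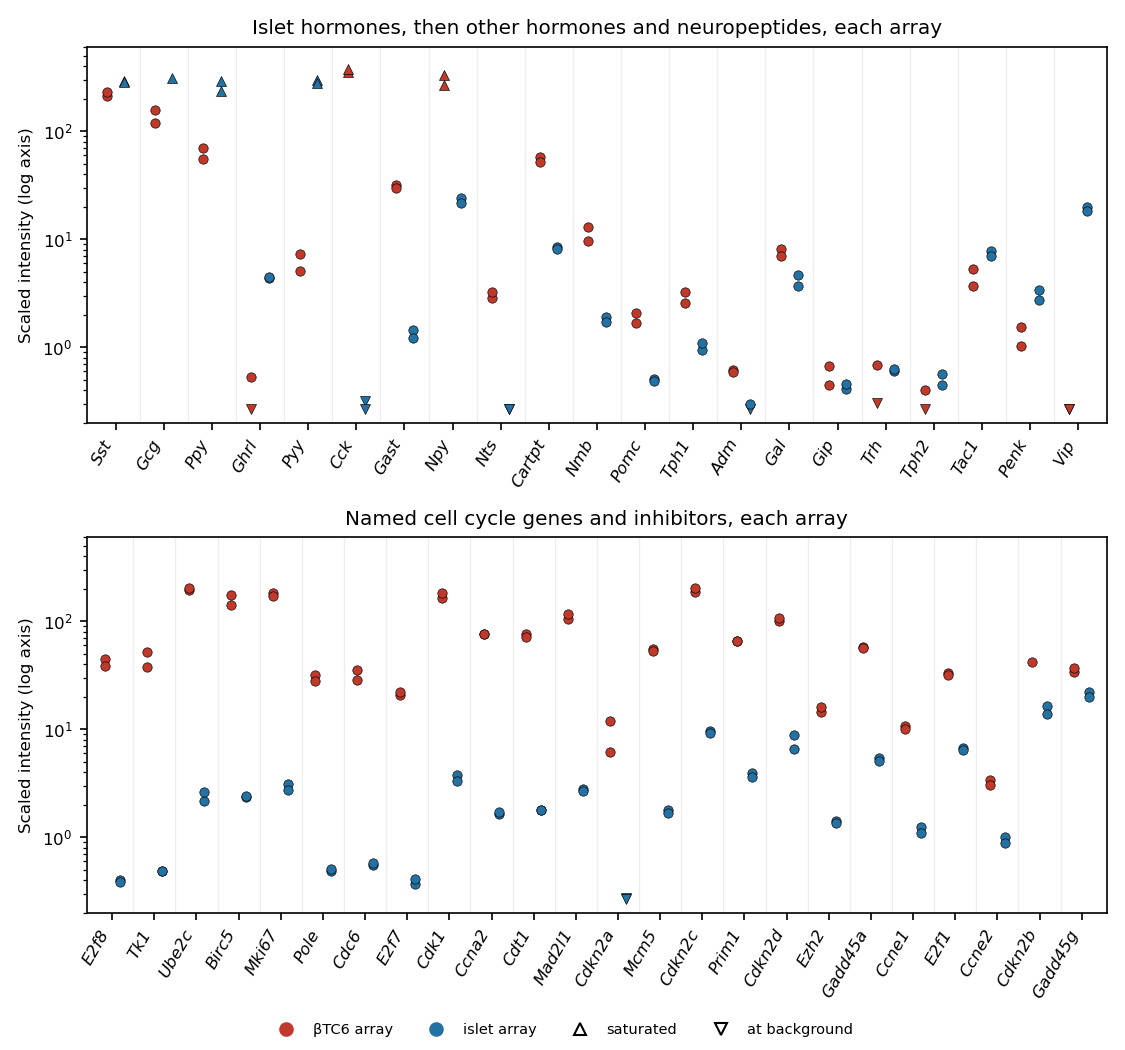
Level on each array (scaled intensity, log axis) of the tested islet hormones and other peptide hormones (upper panel) and of the named cell cycle genes and inhibitors (lower panel), with βTC6 arrays to the left of islet arrays for each gene, triangles for saturated and inverted triangles for background. All 5 islet hormones lay lower in βTC6 cells and Cck, Gast and Npy higher, and every cell cycle gene and inhibitor shown lay higher in βTC6 cells. Those shown were named by rule, mostly for the smallest adjusted p, and the 5 G1 regulators that were lower are not among them.

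The hormones of the other islet cell types were lower in βTC6 cells but, except for Ghrl on 1 array, were above background there. All 5 tested islet hormones were lower (27.6% of all genes were), with a median of -2.06, which is only a limit on the size because the usable islet spots of Sst, Gcg, Ppy and Pyy were saturated. The insulin genes and Iapp have no probe named for them alone and were not analysed here. Sst, the δ-cell hormone somatostatin, had 211 and 229 in βTC6 cells, against 291 and 286 (both saturated) in islets, at least 1.31-fold lower. Gcg, the α-cell hormone glucagon, had 119 and 157 in βTC6 cells, against 309.9 (saturated) on the 1 usable array in islets, at least 2.27-fold lower. Ppy, the PP-cell hormone, had 55.7 and 70.1 in βTC6 cells, against 291 and 233 (both saturated) in islets, at least 4.17-fold lower. The groups did not overlap, and for each of the 3 genes the βTC6 level was above that of E15.5 pancreas, which was 26.2 and 26.6 for Sst, 93.2 and 97.3 for Gcg and 6.41 and 6.43 for Ppy. Pyy, peptide YY, had 5.07 and 7.22 in βTC6 cells, against 298 and 279.5 (both saturated) in islets, at least 47.7-fold lower, and was below E15.5 pancreas (133 and 124). Ghrl, ghrelin, had 0.27 (at background) and 0.527 in βTC6 cells, against 4.33 and 4.48 in islets, 11.7-fold lower.

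Of 16 peptides of gut and nerve, 10 were higher (62.5%) and 4 lower (25.0%), against 49.4% and 27.6% of all genes, with a median of 1.29 and the same counts with quantile normalization. Beside Cck, its close relative gastrin (Gast) had 31.4 and 29.6 in βTC6 cells, against 1.43 and 1.22 in islets (23.1-fold higher, log2 difference 4.53 ± 0.13, SE, adjusted p = 3.3e-11). Npy, neuropeptide Y, had 268 and 330.0 (both saturated) in βTC6 cells, against 23.8 and 21.7 in islets (at least 13.1-fold), and Cartpt, the CART peptide, 57.1 and 51.2 in βTC6 cells, against 8.51 and 8.05 in islets (6.53-fold). Nts, neurotensin, was at background on both islet arrays and at 2.84 and 3.21 in βTC6 cells (at least 11.2-fold). Secretin (Sct) was saturated at 401 (saturated) on the 1 usable array in βTC6 cells and at 0.27 on both arrays (at background) in islets, and was not tested because the other βTC6 array had no usable spot. Nmb, Pomc and Gal were 6.19-fold, 3.71-fold and 1.83-fold higher. The peptide that went furthest the other way was Vip, a peptide of the nerves that reach islets, with 0.27 on both arrays (at background) in βTC6 cells, against 19.7 and 18 in islets (at least 60.0-fold lower), followed by Penk (2.42-fold lower) and Tac1 (1.68-fold lower). Gip, the incretin of the gut, was at 0.672 and 0.446 in βTC6 cells, against 0.413 and 0.459 in islets, and did not pass the test (adjusted p = 0.094), though it did without βTC6 array 2 (log2 difference 0.63).

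The transcription factors of β-cells differed little as a group. Of 21 tested, 9 were higher (42.9%) and 5 lower (23.8%), against 49.4% and 27.6% of all genes. Their median of 0.42 was near that of all genes. Nkx6-1, which marks β-cells among islet cells, had 147 and 172 in βTC6 cells, against 214 and 175 in islets (log2 difference -0.28 ± 0.17, SE, adjusted p = 0.15). Isl1 had 129 and 112 in βTC6 cells, against 43.3 and 44.3 in islets (2.75-fold higher), Neurod1 68.7 and 60.7 in βTC6 cells, against 34.2 and 35.3 in islets (1.86-fold higher) and Pax6 101 and 89.9 in βTC6 cells, against 65.8 and 59.4 in islets (1.52-fold higher). The arrays of the 2 groups did not overlap for these genes, but the differences were small beside the scaling. With quantile normalization 5 were higher and 10 lower: Neurod1 and Nkx2-2 no longer passed, Pax6 and Insm1 changed sign without passing, and Foxa1, Foxa2, Rfx3, St18 and Nkx6-1 were lower, Nkx6-1 by a log2 difference of -1.01. On the scaled values St18 was lower only without βTC6 array 1 (log2 difference -0.33) and Rfx3 only without islet array 2 (-0.35). Etv1, an ETS factor, was higher by either scaling, with 79.6 and 78.9 in βTC6 cells, against 9.57 and 9.42 in islets (8.35-fold, log2 difference 3.06 ± 0.09, SE, adjusted p = 4.9e-11).

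The largest falls among the factors were of Mafa and Mlxipl. Mafa, which switches on insulin and Slc2a2 as mouse β-cells mature, had 0.4 (at background) and 0.707 in βTC6 cells, against 5.54 and 4.88 in islets (9.78-fold lower, log2 difference -3.29 ± 0.24, SE, adjusted p = 1.1e-07). Mlxipl, the glucose-sensing factor ChREBP, had 16 and 15.4 in βTC6 cells, against 92.3 and 88.4 in islets (5.76-fold lower). Both βTC6 arrays were well below both islet arrays, and Mafa was also below its E15.5 pancreas level of 1.62 and 2.07. Rfx6 had 36.1 and 26.3 in βTC6 cells, against 62.4 and 54.7 in islets (1.9-fold lower), and Foxo1 and Glis3 were 1.45-fold and 1.36-fold lower, calls that were lost for Foxo1 without βTC6 array 2 (log2 difference -0.27) or islet array 1 (-0.50) and for Glis3 without islet array 2 (-0.40). Insm1 (1.38-fold higher) was lost without islet array 2 (0.43). The Pdx1 probe was dim everywhere, with 0.776 and 0.598 in βTC6 cells, against 0.524 and 0.482 in islets (adjusted p = 0.053), and passed the test without βTC6 array 2 (log2 difference 0.63), and Neurog3 was at 0.687 and 0.615 in βTC6 cells, against 0.431 and 0.546 in islets (adjusted p = 0.095). At such levels the probes say little about either gene.

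**Figure D3:**
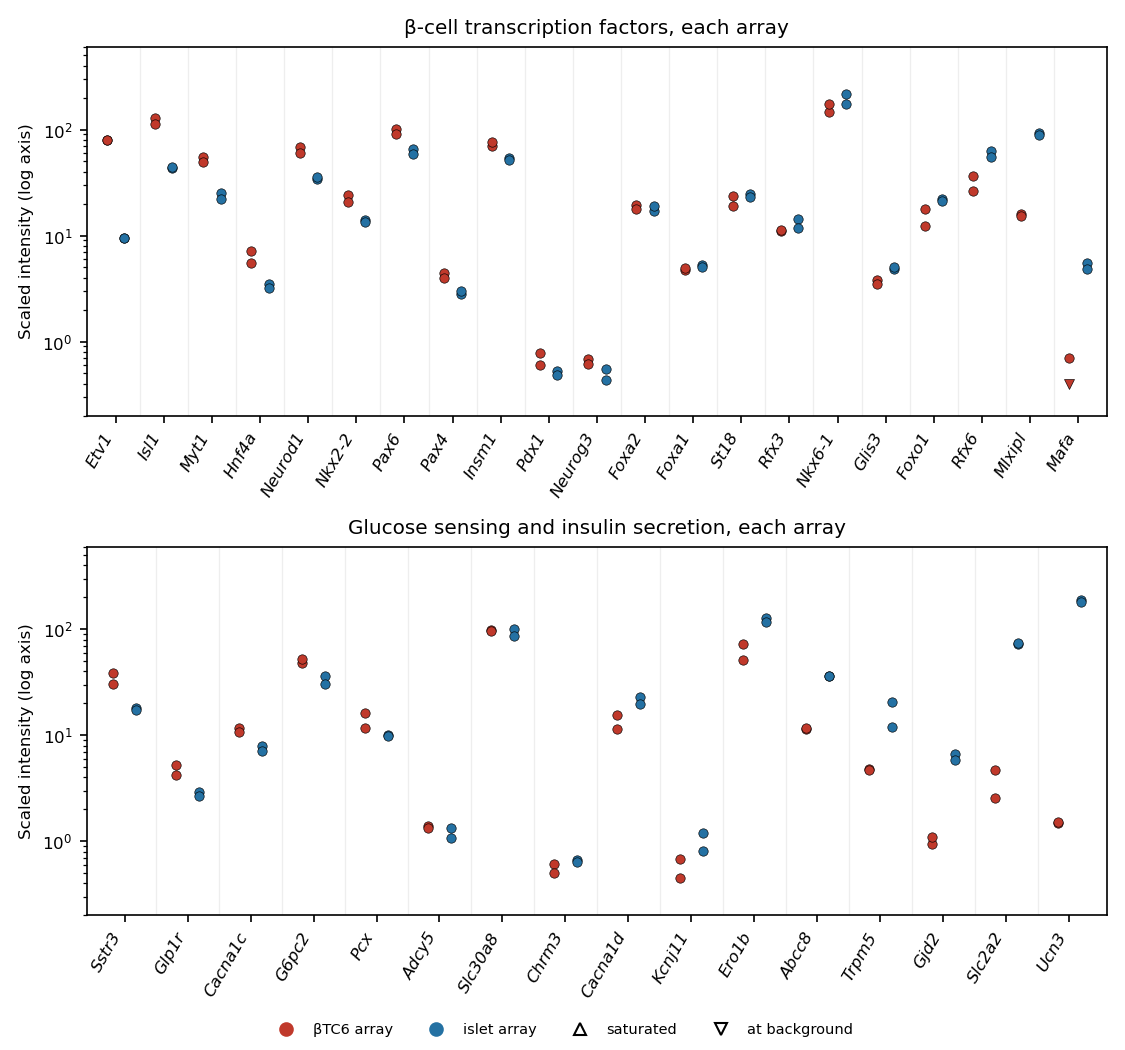
Level on each array (scaled intensity, log axis) of the tested β-cell transcription factors (upper panel) and genes of glucose sensing and insulin secretion (lower panel), with βTC6 arrays to the left of islet arrays for each gene and inverted triangles for background. Most transcription factors lay close together in the 2 groups, while Mafa, Mlxipl, Slc2a2, Gjd2 and Ucn3 lay clearly lower in βTC6 cells.

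In glucose sensing and insulin secretion, 5 of 16 genes were higher (31.25%) and 8 lower (50.0%), against 49.4% and 27.6% of all genes. The median was -0.45 (2 higher and 9 lower with quantile normalization). Ucn3, urocortin 3, a peptide of mature β-cells that prompts somatostatin release, had 1.49 and 1.53 in βTC6 cells, against 189 and 180.1 in islets, 122-fold lower (log2 difference -6.94 ± 0.19, SE, adjusted p = 2.1e-11). Slc2a2, the glucose transporter GLUT2, had 2.56 and 4.68 in βTC6 cells, against 72.6 and 73.5 in islets, 21.1-fold lower (log2 difference -4.40 ± 0.22, SE, adjusted p = 1.1e-08). The βTC6 levels of both genes were of the order of those in E15.5 pancreas, 0.862 and 0.754 for Ucn3 and 3.05 and 3.71 for Slc2a2. Gjd2, connexin 36 of the gap junctions that couple β-cells, had 0.937 and 1.1 in βTC6 cells, against 6.67 and 5.89 in islets (6.17-fold lower). Abcc8, the sulfonylurea receptor of the ATP-sensitive potassium channel, had 11.4 and 11.7 in βTC6 cells, against 36.3 and 36 in islets (3.14-fold lower), and its other 2 probes were lower too. Kcnj11, the pore of that channel, was dim at 0.451 and 0.677 in βTC6 cells, against 0.812 and 1.2 in islets (1.79-fold lower), a call lost without βTC6 array 1 (log2 difference -0.55) or islet array 2 (-0.56). The cation channel Trpm5 was 3.33-fold lower.

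Other genes of the same pathway differed little or were higher. Slc30a8, the zinc transporter of insulin granules, had 98.7 and 95.6 in βTC6 cells, against 101 and 87.3 in islets, and the arrays overlapped (adjusted p = 0.7), but with quantile normalization it was lower, by a log2 difference of -0.67. G6pc2, the islet glucose-6-phosphatase, had 47.8 and 51.9 in βTC6 cells, against 35.9 and 30.4 in islets (1.51-fold higher, and with quantile normalization a log2 difference of -0.09 that did not pass). Glp1r, the GLP-1 receptor, had 4.25 and 5.25 in βTC6 cells, against 2.94 and 2.67 in islets (1.69-fold higher), and Sstr3, a somatostatin receptor, 38.4 and 30.8 in βTC6 cells, against 18.2 and 17.4 in islets (1.93-fold higher). Both kept their direction with quantile normalization. Pcx, pyruvate carboxylase, had 16.2 and 11.7 in βTC6 cells, against 10.0 and 9.88 in islets, and its call was lost without βTC6 array 1 (log2 difference 0.23), islet array 1 (0.47) or islet array 2 (0.45). Cacna1c and Cacna1d, L-type calcium channels, were 1.51-fold higher and 1.59-fold lower by their brightest probes, while the other 2 probes of Cacna1c were lower.

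Granule proteins differed in both directions. Of 15 tested, 5 were higher (33.3%) and 6 lower (40.0%), against 49.4% and 27.6% of all genes, with a median of 0.09. Quantile normalization left 2 higher and 9 lower. Cpe, the carboxypeptidase that trims prohormones, was saturated in both groups, with 309.6 and 334 (both saturated) in βTC6 cells, against 293 (saturated) on the 1 usable array in islets. Chga, chromogranin A, had 250.1 and 228 in βTC6 cells, against 300.2 and 276 (both saturated) in islets (at least 1.21-fold lower), a call lost without βTC6 array 2 (log2 difference -0.20) or islet array 1 (-0.21), and Scg5 had 66.4 and 84.3 in βTC6 cells, against 104 and 91.1 in islets (1.3-fold lower), lost without βTC6 array 1 (-0.21) or islet array 1 (-0.28). Without islet array 1, 3 genes of the list were lower, in place of 6. Ptprn, Resp18 and Sez6l2 were 1.55-fold, 1.35-fold and 1.44-fold higher, with the sign reversed by quantile normalization. The 2 larger rises kept their direction: Vgf, a neuropeptide precursor, had 144 and 124 in βTC6 cells, against 6.38 and 6.75 in islets (20.3-fold higher), and Chgb, chromogranin B, 43.4 and 28.7 in βTC6 cells, against 9.3 and 10.5 in islets (3.58-fold higher). Pcsk1, the prohormone convertase that makes insulin from proinsulin, had 21.3 and 18.4 in βTC6 cells, against 46 and 45 in islets (2.29-fold lower).

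In the exocytosis machinery, 7 of 17 genes were higher (41.2%) and 5 lower (29.4%), near the 49.4% and 27.6% of all genes. The median was 0.17. Among the falls, Unc13a, Rims2 and Cadps are of proteins that prime and dock granules. Unc13a had 6.06 and 5.53 in βTC6 cells, against 44.3 and 39.8 in islets (7.25-fold lower). Rims2 had 8.62 and 8.23 in βTC6 cells, against 45.6 and 42.7 in islets (5.23-fold lower by its brightest probe, with another probe higher). Cadps had 4.17 and 3.04 in βTC6 cells, against 18.6 and 16.7 in islets (4.94-fold lower). Among the rises, the calcium sensor Syt9 had 11.8 and 13.5 in βTC6 cells, against 3.28 and 3.03 in islets (4.01-fold higher), the SNARE protein Snap25 87.9 and 121 in βTC6 cells, against 44.2 and 45.4 in islets (2.3-fold higher) and Napa, which helps take SNARE complexes apart, 32.6 and 33.6 in βTC6 cells, against 15.4 and 15.9 in islets (2.11-fold higher). Each of these 6 genes kept its direction and call with quantile normalization.

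Genes that mark the other endocrine cells of the islet did not move as 1 group. Of 11 α-cell genes, 2 were higher (18.2%) and 5 lower (45.5%), against 49.4% and 27.6% of all genes. Irx2, an α-cell factor, had 1.81 and 1.4 in βTC6 cells, against 4.29 and 3.88 in islets (2.56-fold lower), whereas Irx1 was at 1.52 and 1.7 in βTC6 cells, against 1.44 and 1.62 in islets (adjusted p = 0.61). Slc38a5, an amino acid transporter that α-cells can switch on, had 328 and 332 (both saturated) in βTC6 cells, against 27.9 and 24.6 in islets (at least 12.6-fold higher). Of 7 δ- and PP-cell genes, 2 were higher (28.6%) and 4 lower (57.1%). Hhex, the factor of δ-cells, was at background on both βTC6 arrays, against 2.13 and 1.78 in islets (at least 6.19-fold lower). Rbp4, a retinol carrier rich in δ-cells, had 204 and 264 in βTC6 cells, against 93.8 and 87.9 in islets (2.55-fold higher).

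Genes that β-cells are known to keep low, such as those of lactate handling, were higher in 11 of 20 cases (55.0%) and lower in 7 (35.0%), near the shares over all genes, with a median of 0.52. Ldha, lactate dehydrogenase A, was at 123 on the 1 usable array in βTC6 cells, against 8.7 and 8.51 in islets (14.2-fold higher, log2 difference 3.83 ± 0.19, SE, adjusted p = 2.1e-08). Slc16a3, the lactate exporter MCT4, had 14.3 and 32.1 in βTC6 cells, against 1.86 and 2.35 in islets (10.2-fold higher), with another probe lower, while Slc16a1 (MCT1) was at 0.379 (at background) and 0.616 in βTC6 cells, against 0.582 and 0.636 in islets (adjusted p = 0.13). Oat, ornithine aminotransferase, had 29 and 25.2 in βTC6 cells, against 4.23 and 4.24 in islets (6.4-fold higher). Hk2, a hexokinase of high glucose affinity, had 0.787 and 0.91 in βTC6 cells, against 2.3 and 2.32 in islets (2.73-fold lower) and Hk1 was 1.58-fold higher. Fcgrt and Nfib, on the same list, were at least 8.11-fold and 4.71-fold lower.

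Genes of energy metabolism were mostly higher. All 28 tested genes of the respiratory chain were higher, against 49.4% of all genes, with a median of 1.38, against 0.33 over all genes. With quantile normalization 25 were higher and 2, Atp5a1 and Sdha, lower. The median then fell to 0.69, against 0.07 over all genes, so the size depends on the scaling. Cycs, cytochrome c, had 180.3 and 198 in βTC6 cells, against 38.1 and 33.4 in islets (5.29-fold higher), and Cox6c, a subunit of complex IV, 293 and 299.6 (both saturated) in βTC6 cells, against 57.3 and 54.8 in islets (at least 5.28-fold higher). Atp5o, of the ATP synthase, had 224 and 233 in βTC6 cells, against 58.8 and 56.4 in islets (3.96-fold higher). Cycs and Cox6c were the only members that differed by more than 4-fold. In glycolysis 12 of 18 genes were higher (66.7%, against 49.4% of all genes) and 3 lower, with a median of 1.00, and with quantile normalization 11 were higher and 5 lower. Pgk1, phosphoglycerate kinase, had 125 and 158 in βTC6 cells, against 36.7 and 34.3 in islets (3.96-fold higher), Pfkp, a phosphofructokinase, 53.9 and 64 in βTC6 cells, against 17.7 and 15.8 in islets (3.51-fold higher), and Pdk1, which holds pyruvate back from mitochondria, 6.51 and 7.72 in βTC6 cells, against 2.38 and 2.57 in islets (2.87-fold higher).

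Of 24 genes of ER stress and protein folding, 17 were higher (70.8%) and 5 lower (20.8%), against 49.4% and 27.6% of all genes. Quantile normalization left 10 higher and 8 lower. Genes of the stress response such as Trib3 (7.27 and 9.46 in βTC6 cells, against 1.81 and 2.03 in islets, 4.32-fold higher), Ddit3, which encodes CHOP (64 and 79.1 in βTC6 cells, against 24.9 and 25.4 in islets, 2.83-fold higher), and the sensor Ern1 (11.4 and 10.1 in βTC6 cells, against 2.87 and 2.36 in islets, 4.12-fold higher) kept their direction by either scaling. The chaperones Hspa5 (BiP) and Hsp90b1 (GRP94) were 1.29-fold and 1.22-fold higher on the scaled values and lower with quantile normalization. Dnajb9, an Ern1 target, had 19.7 and 15.6 in βTC6 cells, against 40.0 and 37.9 in islets (2.23-fold lower). Of 26 immediate early and stress genes, 20 were higher (76.9%, against 49.4% of all genes). The 1 lower gene was the chemokine Ccl2, with 1.9 and 2.01 in βTC6 cells, against 23.7 and 25.3 in islets (12.5-fold). With quantile normalization 18 were higher and 2 lower. Hmox1, heme oxygenase, had 25.7 and 20.4 in βTC6 cells, against 3.5 and 3.27 in islets (6.75-fold higher), Fos 1.51 and 2.02 in βTC6 cells, against 0.432 and 0.299 (at background) in islets (4.86-fold higher) and Jun 13.1 and 15.9 in βTC6 cells, against 3.9 and 3.62 in islets (3.84-fold higher). MHC class I and interferon genes were divided, with 10 of 22 higher and 10 lower (45.5% each, against 49.4% and 27.6% of all genes). Quantile normalization left 5 higher and 10 lower. Irf7 had 29 and 37 in βTC6 cells, against 3.41 and 3.26 in islets (9.82-fold higher). Ifit1 had 0.611 and 0.27 (at background) in βTC6 cells, against 2.02 and 1.73 in islets (4.61-fold lower).

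**Figure D4:**
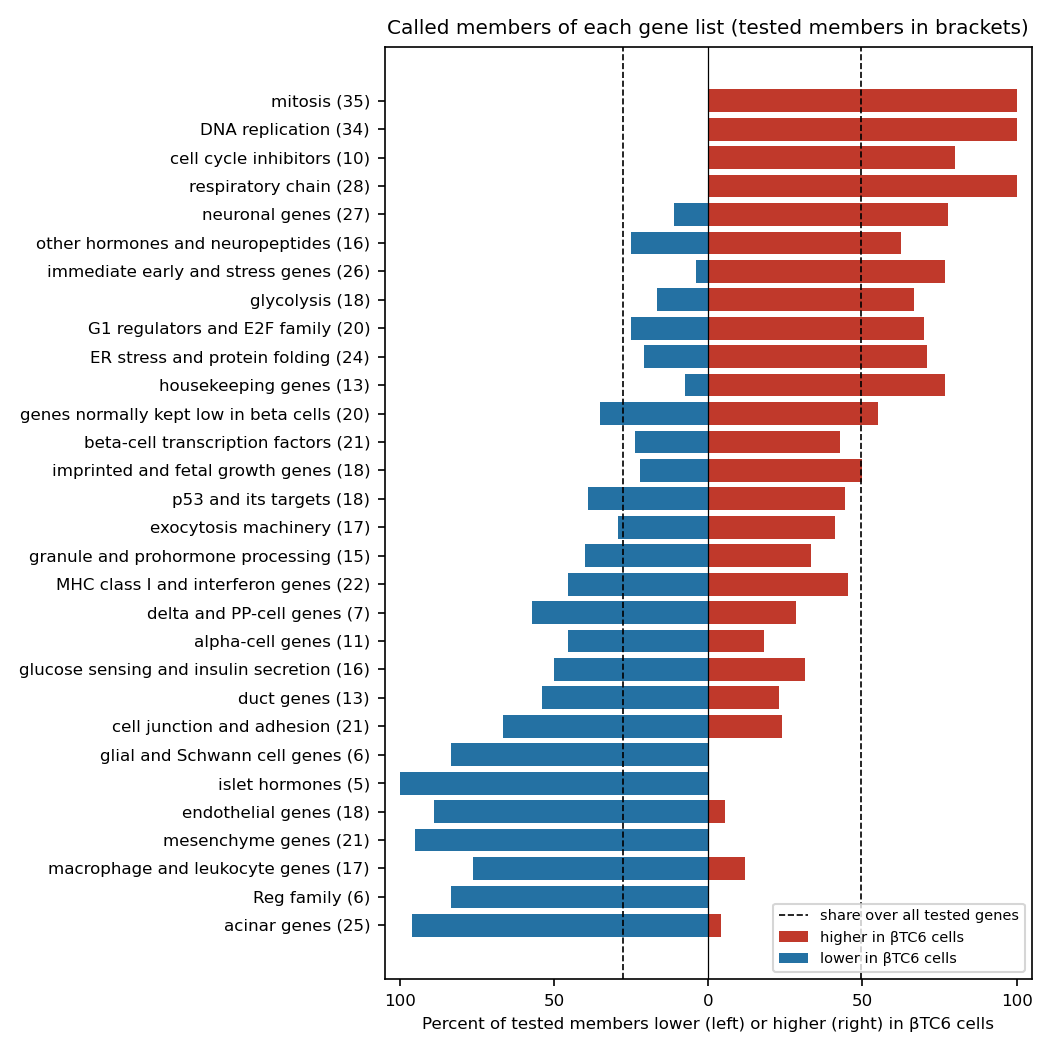
Percent of the tested members of each list that were lower (bars to the left) or higher (bars to the right) in βTC6 cells than in islets, for the 30 lists with at least 5 tested members, whose number is in brackets, ordered by the median log2 difference. The dashed lines are the shares over all genes, 27.6% lower and 49.4% higher, and the lists of cell division and the respiratory chain lie far to the right while the acinar and mesenchyme lists lie far to the left.

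Neuronal genes were higher in 21 of 27 cases (77.8%) and lower in 3 (11.1%), against 49.4% and 27.6% of all genes. The median was 1.33 (20 and 3 with quantile normalization, where the synaptic vesicle protein Syp no longer passed). Nefm, a neurofilament, had 43.9 and 42.5 in βTC6 cells, against 0.978 and 0.97 in islets (44.3-fold higher, log2 difference 5.47 ± 0.12, SE, adjusted p = 2.6e-12), and its partner Nefl 6.06 and 6.08 in βTC6 cells, against 0.376 and 0.353 in islets (16.7-fold higher). Astn1, a receptor of migrating neurons, had 39.6 and 32.6 in βTC6 cells, against 0.886 and 0.864 in islets (41.1-fold higher). Dcx, the doublecortin of young neurons, had 72.5 and 64.8 in βTC6 cells, against 4.62 and 4.5 in islets (15-fold higher), and its other probe was higher too. Nefm, Nefl and Astn1 were as low in E15.5 pancreas as in islets, near 1 or below. Stmn2 was at 6.38 and 13 in βTC6 cells, against 6.12 and 5.98 in islets (adjusted p = 0.055), a difference that passed without βTC6 array 1 (log2 difference 1.10) and was carried by βTC6 array 2. Ncam1, an adhesion molecule of nerve and islet, had 6.94 and 9.8 in βTC6 cells, against 28.6 and 31.8 in islets by its brightest probe (3.66-fold lower), while its other 2 probes were higher.

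Of 18 imprinted and fetal growth genes, 9 were higher (50.0%) and 4 lower (22.2%), near the 49.4% and 27.6% of all genes (8 and 6 with quantile normalization), but single members differed widely. Igf2, the fetal growth factor, had 276 and 289.8 (both saturated) in βTC6 cells, against 2.58 and 2.9 in islets, at least 104-fold higher. H19, its neighbour in the same imprinted cluster, was at 3 and 2.95 in βTC6 cells, against 2.49 and 2.22 in islets (1.26-fold higher), whereas E15.5 pancreas had both, at 171 and 133 for Igf2 and 234 and 209 (both saturated) for H19. High Igf2 with low H19 was thus seen in βTC6 cells, while both were high in E15.5 pancreas and low in islets. Dlk1, a Notch-like protein of the Dlk1-Meg3 cluster, had 52.6 and 116 in βTC6 cells, against 1.36 and 1.21 in islets (61-fold higher), and its neighbour Meg3 was at 43.5 and 39.4 in βTC6 cells, against 41 and 42.1 in islets (adjusted p = 0.97), lower with quantile normalization. Nnat, neuronatin, had 72.5 and 92.6 in βTC6 cells, against 2.8 and 2.53 in islets (30.8-fold higher). Grb10, an adaptor that restrains insulin and IGF receptor signalling, had 1.38 and 1.27 in βTC6 cells, against 43.4 and 40.5 in islets (31.7-fold lower), and Plagl1 was 1.85-fold lower.

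Genes of cell junctions were lower in 14 of 21 cases (66.7%) and higher in 5 (23.8%), against 27.6% and 49.4% of all genes. The median was -1.06 (14 lower and 3 higher with quantile normalization). Cdh1, E-cadherin, had 3.73 and 4.66 in βTC6 cells, against 53.8 and 45.5 in islets (11.9-fold lower, log2 difference -3.57 ± 0.14, SE, adjusted p = 3.4e-10), and Epcam 5.3 and 7.22 in βTC6 cells, against 30.3 and 29.7 in islets (4.85-fold lower). Of the tight junction proteins, Cldn4 had 0.299 and 0.27 (both at background) in βTC6 cells, against 13.2 and 14.5 in islets (at least 44.1-fold lower), Cldn7 1.22 and 1.66 in βTC6 cells, against 38.6 and 33.1 in islets (25.1-fold lower) and Ocln 0.376 (at background) and 0.523 in βTC6 cells, against 7.02 and 6.78 in islets (15.6-fold lower). Ctnnb1, β-catenin, had 7.68 and 7.69 in βTC6 cells, against 33.2 and 26.8 in islets (3.88-fold lower). These genes are also expressed by exocrine tissue, and in E15.5 pancreas Cdh1 was at 58.2 and 51.8 and Epcam at 88.2 and 95.6. The part of exocrine RNA in these falls was not tested. Cadm1, an adhesion molecule of endocrine cells and neurons, went the other way, with 33.7 and 37.9 in βTC6 cells, against 3.28 and 3.25 in islets (10.9-fold higher).

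Many of the furthest falls were of genes of other cell types, which the islet arrays held. Acinar genes were lower in 24 of 25 cases (96.0%, against 27.6% of all genes). Their median of -8.18 is a limit on the size, set by the floor and saturation. The summed level of the 25 usable on every array was 34.7 and 32.9 in βTC6 cells, against 4782 and 4194 in islets. In E15.5 pancreas it was 2161 and 2074. Of the 28 with a probe, 11 were at background on both βTC6 arrays, 13 were saturated on both islet arrays, and 23 were at least as high in islets as in E15.5 pancreas. In E15.5 pancreas 5 were saturated on 1 or both arrays. Where a gene was saturated in both tissues, the order of its levels cannot be read. Cela3b, an elastase, had 0.27 on both arrays (at background) in βTC6 cells, against 305 and 265 (both saturated) in islets, at least 905-fold lower. Cpa1, a carboxypeptidase, had 0.27 on both arrays (at background) in βTC6 cells, against 285 and 242 (both saturated) in islets, at least 835-fold lower. Zg16, of the zymogen granule, had 0.27 and 0.273 (both at background) in βTC6 cells, against 301 and 258 (both saturated) in islets, at least 887-fold lower. The groups lay at the opposite ends of the scale for these genes, and Ctrl, Cela1, Pla2g1b, Cel, Spink1, Cuzd1, Gp2 and Tff2 were lower by at least 198-fold (Tff2) to at least 862-fold (Ctrl). Try5, Prss2 and Amy2a5, at least 892-fold, at least 626-fold and at least 876-fold lower, belong to families of near-identical copies, and Cela2a was read on 1 islet array. Bhlha15, a factor of acinar and other secretory cells, was the exception, with 2.51 and 2.1 in βTC6 cells, against 0.732 and 0.562 in islets (3.58-fold higher).

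Since the islet arrays held acinar RNA, the falls were also counted with acinar genes, and probes no higher in islets than in E15.5 pancreas, set apart. Of the 7657 probes lower in βTC6 cells, 1973 (25.8%) were no higher in islets than in E15.5 pancreas, against 47.5% of all 25320 probes tested, 27 were of acinar genes, and 5662 were neither, a few probes being both of the first kinds. Of the 489 lower by more than 8-fold, 148 (30.3%) were no higher in islets than in E15.5 pancreas, 25 were of acinar genes and 319 were neither. E15.5 pancreas also holds endocrine cells and, if the islets were adult, is younger, so this sets apart only what is as high there. Of the 27 probes of acinar genes, 22 were themselves higher in islets than in E15.5 pancreas, so the level in E15.5 pancreas does not set acinar genes apart. Where a probe was saturated in both tissues, that order cannot be read. The furthest fall of a gene off the acinar list and above E15.5 pancreas in islets was that of 2210010C04Rik, itself known as a trypsinogen gene of acinar cells, with 1.4 and 1.13 in βTC6 cells, against 278 and 271 (both saturated) in islets (at least 218-fold lower), and then Reg3d, with 0.349 (at background) and 0.45 in βTC6 cells, against 68.8 and 71.6 in islets (177-fold lower). Gcgr, the glucagon receptor, had 0.27 on both arrays (at background) in βTC6 cells, against 17.7 and 15.7 in islets (at least 53.1-fold lower), Serpina10 0.501 and 0.385 (at background) in βTC6 cells, against 52.7 and 47.6 in islets (114-fold lower), and Klk1b27, one of many near-identical kallikreins, 0.486 and 0.43 in βTC6 cells, against 33.5 and 32.8 in islets (72.5-fold lower). The Reg genes, secreted proteins of stressed or regenerating exocrine pancreas and gut, were lower in 5 of 6 (83.3%, against 27.6% of all genes). Among them, Reg3b had 0.27 on both arrays (at background) in βTC6 cells, against 25.3 and 26.7 in islets (at least 82.6-fold). Reg2 had 0.724 and 0.924 in βTC6 cells, against 27 and 22.1 in islets (29.9-fold). The part of acinar RNA in these falls was not tested.

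Endothelial genes were lower in 16 of 18 cases (88.9%, against 27.6% of all genes), with a median of -2.07 on floored values. Their summed level over 19 genes was 27.2 and 32.5 in βTC6 cells, against 139 and 133 in islets. At background on both βTC6 arrays were 10 of the 19, among them the defining marker Pecam1, against 5.77 and 6.04 in islets, and Emcn, against 17.2 and 18.1 in islets. Kdr, the VEGF receptor, had 0.375 (at background) and 0.542 in βTC6 cells, against 22.6 and 21.1 in islets (48.5-fold lower). Macrophage and leukocyte genes were lower in 13 of 17 cases (76.5%, against 27.6% of all genes) and higher in 2. Their sums over 19 genes were 36.2 and 42.6 in βTC6 cells, against 151 and 145 in islets. Of the 20 with a probe, 13 were at background on both βTC6 arrays. The MHC class II gene H2-Aa had 0.27 on both arrays (at background) in βTC6 cells, against 28.6 and 26.8 in islets (at least 88.1-fold lower), H2-Eb1 was at least 79.3-fold lower, their chaperone Cd74 had 0.27 (at background) on the 1 usable array in βTC6 cells, against 37.5 and 33.4 in islets (at least 112-fold lower), and the protease Ctss had 0.27 on both arrays (at background) in βTC6 cells, against 23 and 21.5 in islets (at least 70.7-fold lower). Mesenchyme genes were lower in 20 of 21 cases, with sums of 15.7 and 16.5, against 191 and 182 in islets, and of 1050.0 and 1030.0 in E15.5 pancreas. Of these genes, 11 were at background on both βTC6 arrays. Col3a1 had 0.27 on both arrays (at background) in βTC6 cells, against 23.8 and 23.6 in islets (at least 75.4-fold lower), Mgp 0.27 and 0.315 (both at background) in βTC6 cells, against 36.9 and 27.8 in islets (at least 101-fold lower) and Timp3, an inhibitor of matrix proteases, 0.274 and 0.27 (both at background) in βTC6 cells, against 18.6 and 20.7 in islets (at least 62.3-fold lower). Genes named here were chosen with their values or adjusted p known, so their lack of overlap between the groups adds nothing. The part of these cell types in the other falls was not tested.

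**Figure D5:**
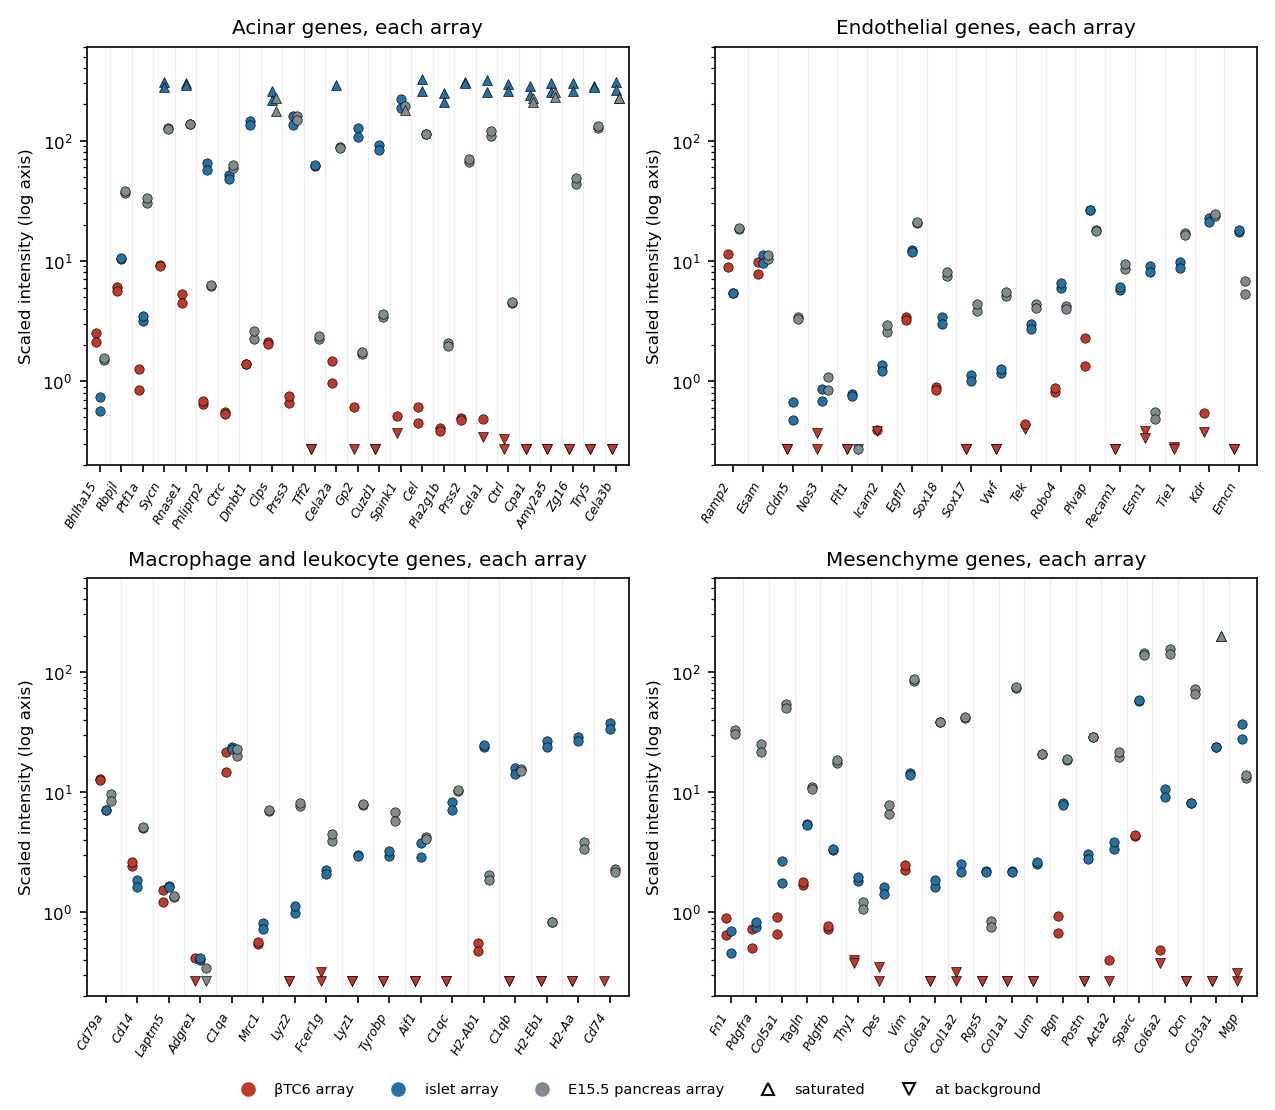
Level on each array (scaled intensity, log axis) of the tested acinar, endothelial, macrophage and leukocyte, and mesenchyme genes, with βTC6 arrays, islet arrays and E15.5 pancreas arrays from left to right for each gene, triangles for saturated and inverted triangles for background. Acinar genes, except Bhlha15, lay higher in islets than in βTC6 cells, and most mesenchyme genes in islets lay between their levels in βTC6 cells and in E15.5 pancreas.

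Of 13 duct genes 7 were lower (53.8%) and 3 higher (23.1%), against 27.6% and 49.4% of all genes. Of 6 genes of glia and Schwann cells 5 were lower (83.3%). Krt19, the duct keratin, had 0.331 and 0.325 (both at background) in βTC6 cells, against 1.15 and 0.945 in islets (at least 3.18-fold lower), while Sox9, which marks ducts, was at background on both βTC6 arrays and at 0.27 (at background) and 0.314 in islets and was not tested. Muc1, a mucin of duct and acinar cells, had 1 and 1.01 in βTC6 cells, against 17 and 14.7 in islets (15.7-fold lower), and Tff3, a trefoil peptide, 38.7 and 54.2 in βTC6 cells, against 1.57 and 2.48 in islets (23.2-fold higher). S100b, of glia, had 0.27 on both arrays (at background) in βTC6 cells, against 2.17 and 2.12 in islets (at least 6.82-fold lower). Both red blood cell genes that could be tested, Alas2 and Epb42, were lower, by 2.14-fold and 1.86-fold. Reference genes commonly used to scale expression were themselves mostly higher, 10 of 13 (76.9%, against 49.4% of all genes) with 1 lower. Quantile normalization left 5 higher and 4 lower. There Actb and Sdha changed direction and passed the test, and Gusb changed sign without passing it. Actb, β-actin, was at 210.1 and 197 in βTC6 cells, against 172 and 156 in islets, and Hprt, which kept its direction, at 86.9 and 92.9 in βTC6 cells, against 42.7 and 32.9 in islets (2.4-fold higher).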

How the data were processed

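Total RNA was measured on 10 CodeLink arrays in 5 groups of 2, grouped by the labels. The authors read the spots in CodeLink Expression Analysis (4.1.0.29054), subtracted the local background median and divided by the array median, so the deposited values are scaled intensity, and the table of the series held the same values as the scanner files. The study's further filtering was not repeated. Of 36227 spots, 1260 control spots were left out. Values were floored at 0.27 and taken to log2, and values of failed or contaminated spots were treated as missing. Probes above background on both arrays of βTC6 cells or of islets entered limma 3.58.1 (R 4.3.3) with 1 mean per group over all 10 arrays, moderated with trend and robust weights, and p-values were adjusted over 25320 probes (Benjamini-Hochberg, 0.05). A saturated or background spot gave bounds, computed from the mean log2 levels. Symbols came from the platform annotation, updated through RefSeq tables (GRCm38.p6). Of 34967 probes, 21615 had 1 symbol, 681 several and 12671 none, and genes were counted by the probe with the highest mean over all 10 arrays. Insulin 1, insulin 2 and Iapp had no probe of 1 symbol and were not analysed here. In simulated data with 25225 probes, 100% of 50 probes changed by a log2 of 2, and 86% of 50 raised by 1, were recovered, with 12 false calls among 25025. Nearly all simulated probes were unchanged, whereas 10905 probes were called higher and 7657 lower in the data. The adjusted threshold thus fell at a different unadjusted p, and these rates do not describe this comparison.

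The lists and the alternatives were chosen with earlier results of these data known, so no list is independent support. Genes named are the 15 largest rises, the 15 largest falls and the 15 largest falls with acinar genes set apart (all with groups that do not overlap), up to 6 genes with the smallest adjusted p of each list, all islet hormones, β-cell transcription factors and glucose-sensing genes, and genes the study names. Further list members that the text names, such as the D cyclins, the Mcm subunits, Cdkn1a, H19 and Actb, were added after their values were seen. Promoters (250 bases before to 50 after the start, 1 per gene) are from RefSeq. Replicate numbers did not pair the arrays: the differences between replicates of βTC6 cells and of islets correlated at -0.066. Counts and plots were made in Python 3.11.15 with matplotlib 3.10.9, numpy 2.4.6 and pandas 2.3.3.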

Additional observations from a re-analysis of the deposited data

How the results depend on the processing

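Of 234 genes named by the rule and tested, 219 were called on the scaled values, and 205 kept their side of the threshold and, where called, their direction under each alternative in which they were tested. Some alternatives hold fewer of them: 171 for probes above background on all 4 arrays, 106 for non-acinar probes above E15.5 pancreas in islets, and 231 to 233 without 1 array. The exceptions came mostly from quantile normalization, under which 9 of these genes changed sign, and which gives every array 1 distribution although the summed levels differed between the groups. Under quantile normalization without and with normexp background correction, the log2 differences were -0.48 and -0.47 for Foxa2, -0.085 and -0.083 for G6pc2, -0.014 and -0.013 for Gusb, -0.28 and -0.28 for Insm1, -0.14 and -0.13 for Pax6, -0.13 and -0.12 for Ptprn, -0.26 and -0.23 for Resp18, -0.24 and -0.23 for Sez6l2, and -0.67 and -0.66 for Slc30a8. Actb, Sdha, Atp5a1, Hspa5 and Hsp90b1, which also turned, were named after their values were seen and are outside the 234. Under both, 5 β-cell transcription factors, 10 ER genes, 5 MHC and interferon genes and 5 housekeeping genes were higher. Whether the groups differ in total mRNA per cell was not tested.

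A size of at least 2-fold left 5914 probes higher and 3718 lower, with 2 granule, 5 glucose-sensing, 3 glial and 1 red blood cell genes lower, and 4 exocytosis genes, 3 β-cell transcription factors, 9 G1 regulators, 4 p53 targets, 10 ER, 5 MHC and 3 housekeeping genes higher. Probes above background on all 4 arrays left 3 islet hormones, 12 acinar, 2 Reg, 4 endothelial, 3 macrophage, 7 mesenchyme and 2 glial genes lower, since genes at background in βTC6 cells then drop out. With only non-acinar probes above E15.5 pancreas in islets, 3473 probes were higher, and of the lists 4 other hormones, 1 gene kept low, 0 of DNA replication and mitosis, 1 G1 regulator, 4 inhibitors, 5 p53 targets, 2 glycolysis, 4 respiratory, 10 ER, 8 immediate early, 12 neuronal, 0 imprinted and 2 housekeeping genes were higher, and 0 acinar, 3 duct, 5 endothelial, 5 macrophage, 3 mesenchyme, 1 glial, 1 red blood cell and 4 junction genes lower, because fewer genes enter. No replication or mitosis gene was above E15.5 pancreas in islets, so that alternative says nothing of them.

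Leaving out 1 array at a time gave 9887 to 11083 probes higher and 6949 to 7432 lower, and 3 to 6 granule genes lower. With the replicate number as a block, 10840 probes were higher and 7585 lower, and Stmn2 passed the test. The other fits gave counts within 1.5 times those reported. Dim probes such as those of Pdx1, Neurog3 and Kcnj11 lay near background.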

Other observations

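Families of genes outside the lists above, chosen after values had been seen, were counted the same way. Most genes of ribosomes, the proteasome and the CCT chaperonin were higher in βTC6 cells, against 49.4% of all genes higher and 27.6% lower. Of 58 tested cytosolic ribosomal protein genes, 54 were higher and none lower (47 and 1 with quantile normalization), and of 70 mitochondrial ribosomal protein genes 67 were higher and none lower (63 and 2), with medians of 0.97 and 1.57 on the log2 scale, against 0.33 over all genes. With quantile normalization these medians fell to 0.44 and 0.94, against 0.07 over all genes. Mrps11, of the small mitochondrial subunit, had 20.5 and 26 in βTC6 cells, against 3.48 and 3.36 in islets (6.75-fold higher). Of 37 proteasome genes 34 were higher and 3 lower, with a median of 1.71. With quantile normalization 32 were higher and 3 lower, with a median of 0.90. Psmd9, an assembly factor of the proteasome cap, had 30.6 and 33.9 in βTC6 cells, against 5.18 and 4.76 in islets (6.49-fold higher). All 9 subunits of the CCT chaperonin, which folds actin and tubulin, were higher, 8 of them with quantile normalization, led by Cct7 (81.1 and 78 in βTC6 cells, against 18.6 and 21.1 in islets, 4.02-fold). Aminoacyl-tRNA synthetases were higher in 20 of 32 cases and lower in 4, but with quantile normalization in 13 and 10. Translation initiation factors were higher in 32 of 46 cases and lower in 7 (22 and 11 with quantile normalization), and the Y-linked Eif2s3y had 0.27 on both arrays (at background) in βTC6 cells, against 11.9 and 11 in islets (at least 36.3-fold lower).

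Other families were mixed or lower, against 49.4% of all genes higher and 27.6% lower. Of 34 collagen genes 23 were lower and 7 higher, and Col4a1, of basement membranes, had 1.1 and 1.11 in βTC6 cells, against 21.3 and 19 in islets (18.2-fold lower). Of 58 potassium channel genes 15 were higher and 21 lower, and Kcnk3, the leak channel TASK-1, had 0.584 and 0.727 in βTC6 cells, against 19.1 and 16.2 in islets (27-fold lower). Of 29 voltage-gated calcium and sodium channel genes 12 were higher and 11 lower. The sodium channel Scn8a had 0.449 and 0.579 in βTC6 cells, against 12.6 and 9.94 in islets (22-fold lower), whereas Cacna1h, a T-type calcium channel, had 11.1 and 12.1 in βTC6 cells, against 2.31 and 2.41 in islets (4.92-fold higher). Cytochrome P450 genes were lower in 25 of 39 cases and higher in 5, among them Cyp2r1, a vitamin D hydroxylase, with 21.7 and 25.7 in βTC6 cells, against 125 and 113 in islets (5.02-fold lower). Hox genes were lower in 13 of 25 cases and higher in 3, mostly at low levels. Rab GTPases were higher in 35 of 55 cases and lower in 9 (26 and 16 with quantile normalization), but Rab25, of epithelial recycling endosomes, had 1.11 and 2.12 in βTC6 cells, against 28 and 23.9 in islets (16.8-fold lower), and claudins were higher in 6 of 17 and lower in 8 (4 and 8 with quantile normalization), with Cldn1 at 4.06 and 6.26 in βTC6 cells, against 0.454 and 0.537 in islets (10.2-fold higher). Of 14 Wnt ligand genes 6 were higher and 5 lower (5 and 6 with quantile normalization). Among them, Wnt3, a secreted signal, had 4.86 and 5.57 in βTC6 cells, against 63.5 and 50.7 in islets (10.9-fold lower). Of 254 olfactory receptor genes, many of which share sequence with close relatives, 60 were higher and 81 lower.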
